A study of Rattus norvegicus with 6 samples.

Results

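The genes described here are the molecular chaperones of the HSP70, HSP110 and HSP90 families, their J-domain (DNAJ) and BAG partners, and the 2 chaperonins, the cytosolic ring CCT (also called TRiC) and the mitochondrial pair HSP60 and HSP10. They were taken by a rule on gene symbols that uses no measured value, though it was set with earlier results of these data known. The rule gave 75 of the 14475 genes counted in VSM cells. Of these, 71 had a mean of at least 1 CPM (counts scaled to the normalized size of the library) and 73 had at least 10 counts in every library. The 4 genes under 1 CPM were Cct6b, Cct8l2 and the pseudogene rows Hsp90aa1-ps17 and Hspa8-ps23. Dnajb1 and Hspa1b, which belong to these families, had no row in the table and were not analysed here.

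Chaperones bind proteins that are not yet folded or have come unfolded. J-domain proteins bring clients to an HSP70, which uses ATP to hold and release them, and HSP110 and BAG proteins act as exchange factors that make HSP70 let go. HSP90 takes over late folding of kinases, receptors and myosin heads, while CCT encloses actin and tubulin, so that a contractile cell draws on these systems to build its filaments. Cells keep separate sets in the cytosol, the endoplasmic reticulum (ER) and the mitochondrion, and raise the first with heat shock factors and the second with the unfolded protein response.

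VSM cells were grown out of the soleus feed artery (SFA), which supplies the soleus muscle, of male Fischer 344 rats aged 4 months (young, 3 libraries) or 24 months (old, 3 libraries). Polyadenylated RNA was sequenced from cells kept in DMEM F-12 with fetal bovine serum, and the libraries of a group came from different rats, so that p-values measure the spread between these cultures. The comparison addresses how age alters the cells of this artery. The labels name no transgene and no treatment, and serum culture is shared by both groups, so that the levels are those of growing cells outside the artery.

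Total counts on genes ranged from 44235674 to 59700887 per library. Smooth muscle markers were present in all libraries, with a summed level of 11326 to 21576 CPM in young and 3479 to 5608 CPM in old, and were lower in old for 10 of 10 genes. Fibroblast markers summed to 731 to 1262 CPM in young and 1603 to 2555 CPM in old, with 7 of 8 genes higher in old. Of the 8 genes in each list, 4 endothelial and 2 macrophage markers had a row, and they summed to at most 18.2 and 2.91 CPM. Among Schwann cell markers, 4 of 7 had a row (sums of 13.7 to 86.6 CPM). Among skeletal muscle markers 2 of 8 had a row, Acta1 and Tnnt3, with sums of 84.9 to 263 CPM in young and 27.8 to 46.0 CPM in old. The actin gene Acta1 made up most of the young sums, at 72.1, 140 and 256 CPM. It was lower in old (log2FC -3.51, SE 0.62), while Tnnt3 was higher (log2FC 0.92, SE 0.38). In bulk RNA, fewer cells of a type and less RNA per cell cannot be told apart. Proliferation genes were lower in old for 10 of 10 genes and summed to 707, 458 and 688 CPM in young replicates 1 to 3 and to 502, 172 and 142 CPM in old replicates 1 to 3. The sum of old replicate 1 thus lay inside the young range, although 4 of the 10 genes (Cdk1, Mcm2, Mcm5 and Pcna) were below it in that library. Several results that move with old replicate 1 are therefore given with and without it.

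Promoters of these families carry well-known control elements, and 6 of them are shown as examples from the cytosolic, mitochondrial and ER sets. Windows from 250 bases before to 50 bases after the start of transcription were taken from RefSeq (assembly GRCr8) and matched by symbol for 61 of the 75 genes. The heat shock element, to which heat shock factors bind, was searched as 3 units (GAANNTTCNNGAA or TTCNNGAANNTTC) on both strands. It was found in 6 of the 61 windows (9.84%), those of Cct4, Dnaja1, Hspa8, Hspd1, Hspe1 and Hsph1, compared with 0.798% of all 33469 windows. The shorter form of 2 units (GAANNTTC or TTCNNGAA), which every 3-unit match contains, was found in 16 of the 61 windows (26.2%) and in 15.9% of all windows. The window of Hspa1a, the classical stress-inducible HSP70, held neither form, while that of Hspa8, which is mainly constitutive, held both. The ER stress response element, which ATF6 and NF-Y bind, was searched as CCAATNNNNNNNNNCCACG or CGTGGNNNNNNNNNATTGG and was found in 3 of the 61 windows (4.92%), those of Hspa5, Hsp90b1 and Dnajc3, compared with 0.0657% of all windows. A match describes these letters and is not a measured binding site. An absent match, as for Hspa1a, does not show that the element is missing, since only exact letters in a single window per gene were searched. Below, capitals mark the fixed letters of the 3-unit heat shock element in the first 3 sequences (the 2 matches of Hspe1 overlap, and 1 of the 2 in the Hspa8 window is shown) and of the ER stress response element in the last 3 (1 of the 2 matches of Hsp90b1 is shown).
Hspa8, chr8:50080419-50080488, + strand: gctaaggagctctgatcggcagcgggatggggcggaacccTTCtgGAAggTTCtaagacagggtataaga
Hsph1, chr12:10427292-10427361, + strand: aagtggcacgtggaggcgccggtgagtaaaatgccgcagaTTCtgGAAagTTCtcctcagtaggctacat
Hspe1, chr9:64084227-64084296, + strand: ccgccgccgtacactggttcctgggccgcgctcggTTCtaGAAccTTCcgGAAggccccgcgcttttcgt
Hspa5, chr3:38452933-38453002, + strand: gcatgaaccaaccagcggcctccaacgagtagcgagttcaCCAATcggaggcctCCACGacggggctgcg
Hsp90b1, chr7:23012336-23012405, - strand: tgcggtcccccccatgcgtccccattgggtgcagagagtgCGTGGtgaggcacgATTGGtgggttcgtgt
Dnajc3, chr15:102432494-102432563, + strand: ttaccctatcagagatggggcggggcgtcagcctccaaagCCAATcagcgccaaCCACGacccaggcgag
The window of Hspd1 overlaps that of Hspe1 by 211 bases on the opposite strand, so that HSP60 and HSP10 share these elements.

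Most chaperone genes differed little with age, and a few with low or moderate counts differed by more than 2-fold. Of the 75 genes, 45 were lower and 30 higher in old VSM cells, with a median of -0.11 for the log2 fold change (log2FC, old over young), compared with 0.02 for all genes. An absolute log2FC of at least 0.5 was seen for 12 genes (16%), compared with 28.6% of all genes, and one of at least 1 for 6 genes (8%), compared with 11.4%. Together the 75 genes took 1.02%, 1.00% and 1.02% of the counts of the young libraries and 1.01%, 0.919% and 0.795% of those of old replicates 1 to 3.

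By edgeR's quasi-likelihood test with Benjamini-Hochberg adjustment over all genes, 0 of the 75 genes passed an adjusted p of 0.05 together with an absolute log2FC of at least 1, where 0.00691% of all genes did, and limma-voom called 0 of them as well. At an unadjusted p under 0.05 the same edgeR test gave 6 genes higher in old (8%; 11.2% of all genes) and 11 lower in old (14.7%; 11.5% of all genes). The DESeq2 Wald test, which the study used, called 2 genes higher, Hspa12b and Dnajc6 (2.67%; 2.25% of all genes), and 4 lower, Dnajb4, Hspa1a, Hspa4l and Hspa1l (5.33%; 3.31% of all genes). At a DESeq2 adjusted p under 0.05 without a limit on the fold, Dnajc13 and Hspa9 joined the higher genes to make 4 (5.33%; 5.6% of all genes) and Cct3 joined the lower genes to make 5 (6.67%; 6.61% of all genes). These shares of called genes were all near those of all genes. The 3 old libraries lay entirely above the 3 young libraries for 10 genes (13.3%; 14.5% of all genes) and entirely below them for 17 genes (22.7%; 14.7% of all genes). In 14 of those 17 genes old replicate 1 was the highest of the old libraries, and among all genes with old below young that share was 62.0%. Without old replicate 1, edgeR called 3 of the 75 genes, Dnajb4, Hspa1a and Hspa4l, all lower in old, when it called 5.06% of all genes. That library was thus the old one nearest to young for most genes with old below young. Among the 10 chaperone genes with old above young, it was the lowest old library in 4. Why more genes were called without it was not tested.

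**Figure D1:**
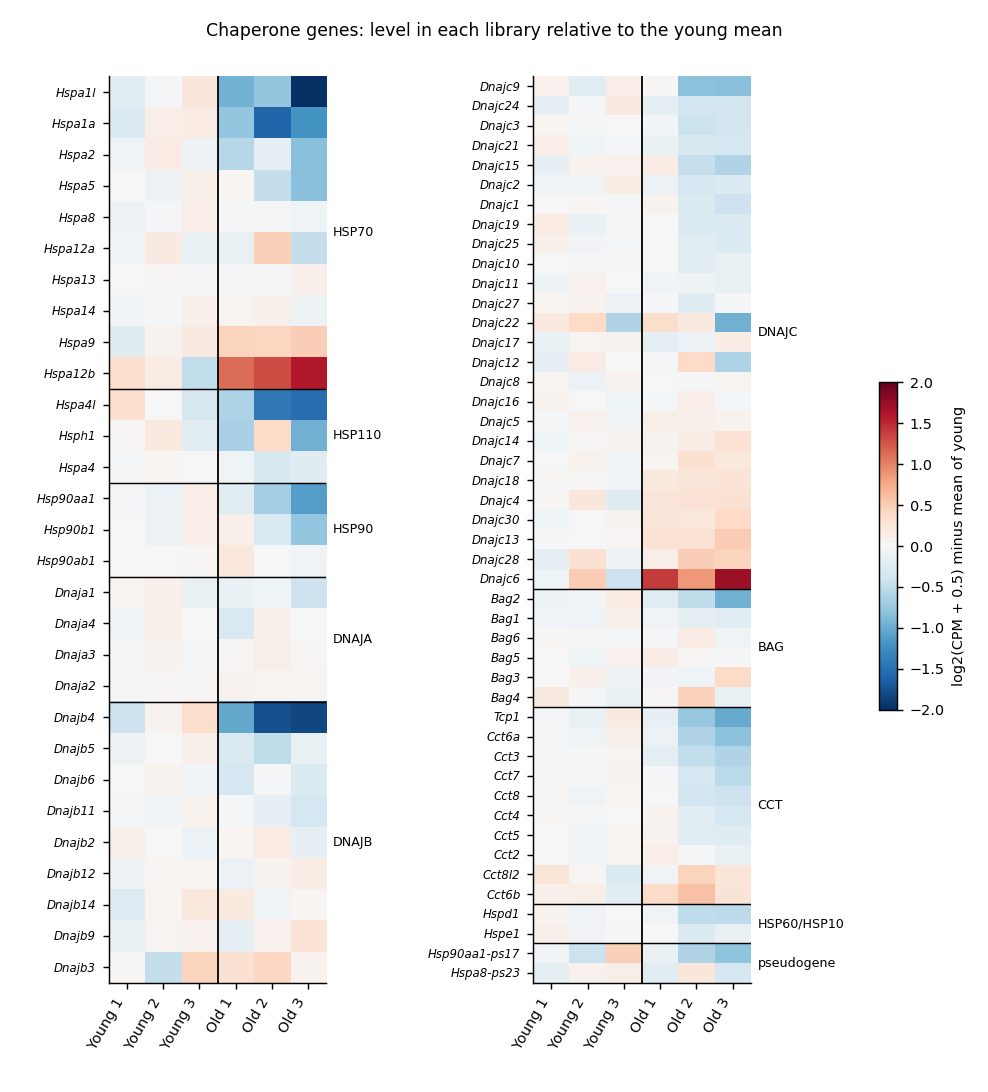
Heat map of the 75 genes by family (rows, sorted by log2FC) in the 6 libraries (columns). Color is log2(CPM + 0.5) minus the mean of the 3 young libraries, limited at -2 and 2. Most rows are pale, and the dark rows are Hspa1l, Hspa1a, Hspa4l and Dnajb4 (lower in old) and Hspa12b and Dnajc6 (higher in old).

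The cytosolic HSP70 genes differed from each other. Hspa8 (ENSRNOG00000034066), the constitutive HSP70 that works in every cell, was at 771, 821 and 911 CPM in young replicates 1 to 3 and at 811, 816 and 786 CPM in old replicates 1 to 3. All 3 old values lay inside the young range, and the log2FC was -0.05 (SE 0.12). Hspa1a (ENSRNOG00000050647), the classical stress-inducible HSP70, was at 12.9, 17.5 and 17.9 CPM in young and at 8.99, 4.89 and 6.70 CPM in old. Every old library was below every young one, by 2.34-fold on the fitted scale (log2FC -1.23, SE 0.26, adjusted p = 0.0805 from edgeR and 5.4e-04 from DESeq2). The count ratio of Hspa1a to Hspa8 within a library was 0.0192 ± 0.00232 (SD, n = 3) in young and 0.00853 ± 0.00254 in old.

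Hspa1l (ENSRNOG00000047966), a close relative of Hspa1a best known from testis, was at 5.49, 6.35 and 7.63 CPM in young and 3.12, 3.54 and 1.08 CPM in old. The groups did not overlap, and the log2FC was -1.33 (SE 0.44, adjusted p = 0.162 from edgeR and 0.0318 from DESeq2). In the RefSeq table the spans of Hspa1a and Hspa1l overlap on opposite strands, and the strand setting of the counting is not given, so reads of one may have been counted for the other. Hspa1a is also nearly identical to Hspa1b, and the value of each is therefore uncertain. Hspa2, another HSP70 of testis and muscle, was at 17.1, 20.4 and 16.8 CPM in young and 11.9, 15.9 and 9.91 CPM in old, with a log2FC of -0.52 (SE 0.20, adjusted p = 0.193 from edgeR).

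The largest difference among HSP70 genes went the other way. Hspa12b (ENSRNOG00000021244), a distant HSP70 relative described in endothelial cells, was at 2.61, 2.23 and 1.24 CPM in young and 4.84, 5.54 and 6.98 CPM in old. All old libraries were above all young ones, by 2.85-fold (log2FC 1.51, SE 0.32, adjusted p = 0.0850 from edgeR and 3.6e-04 from DESeq2). Its level was low, and the 4 endothelial markers with a row summed to 11, 4.01 and 13.6 CPM in young and 15.6, 12.7 and 18.2 CPM in old, with 3 of 4 higher in old and 0 at an unadjusted p under 0.05 in edgeR. Whether endothelial RNA plays a part in this difference was not tested. Its sister gene Hspa12a did not show the same separation, at 12.2 to 15.2 CPM in young and 9.50 to 18.7 CPM in old.

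The 3 genes of the HSP110 family, exchange factors and holdases for HSP70, were lower in old on average, with a median log2FC of -0.30. Hspa4 (Apg-2), the exchange factor of resting cells, was at 392, 415 and 400 CPM in young and 377, 321 and 342 CPM in old. The groups were separate, but the log2FC was only -0.21 (SE 0.10, adjusted p = 0.270 from edgeR). Hspa4l (ENSRNOG00000010819; Apg-1) was at 5.05, 3.92 and 3.03 CPM in young and 2.37, 1.14 and 1.04 CPM in old. It was 2.64-fold lower in old with no overlap (log2FC -1.40, SE 0.40, adjusted p = 0.129 from edgeR and 0.0126 from DESeq2). Hsph1 (HSP105), the heat-inducible member, varied widely between the old cultures. It was at 178, 201 and 152 CPM in young and at 112, 230 and 90.2 CPM in old, so that old replicate 2 exceeded all young libraries while old replicates 1 and 3 were below them. Its log2FC was -0.30 with all libraries (SE 0.35) and -0.81 without old replicate 2.

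The HSP90 genes differed by isoform. Hsp90aa1 (ENSRNOG00000059714), the inducible cytosolic HSP90α, was at 481, 450 and 536 CPM in young and 422, 302 and 226 CPM in old. All old libraries were below the young ones, old replicate 1 only slightly, and the log2FC was -0.63 (SE 0.23, adjusted p = 0.189 from edgeR and 0.0838 from DESeq2). Hsp90ab1, the constitutive cytosolic HSP90β, was at 631, 631 and 651 CPM in young and 741, 634 and 610 CPM in old. Its groups overlapped and its log2FC was 0.05 (SE 0.12). The ratio of Hsp90aa1 to Hsp90ab1 counts within a library compares the α and β genes free of scaling between libraries. It was 0.762, 0.713 and 0.823 in young and 0.569, 0.476 and 0.371 in old, without overlap (exact permutation test, two-sided p = 0.1, the smallest that 3 against 3 allows). The pair was chosen after its values were seen, so this p adds no independent support. Hsp90b1 (GRP94), the HSP90 of the ER, was at 1172, 1081 and 1288 CPM in young and 1263, 949 and 687 CPM in old, with a log2FC of -0.29 (SE 0.23) and overlapping groups.

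**Figure D2:**
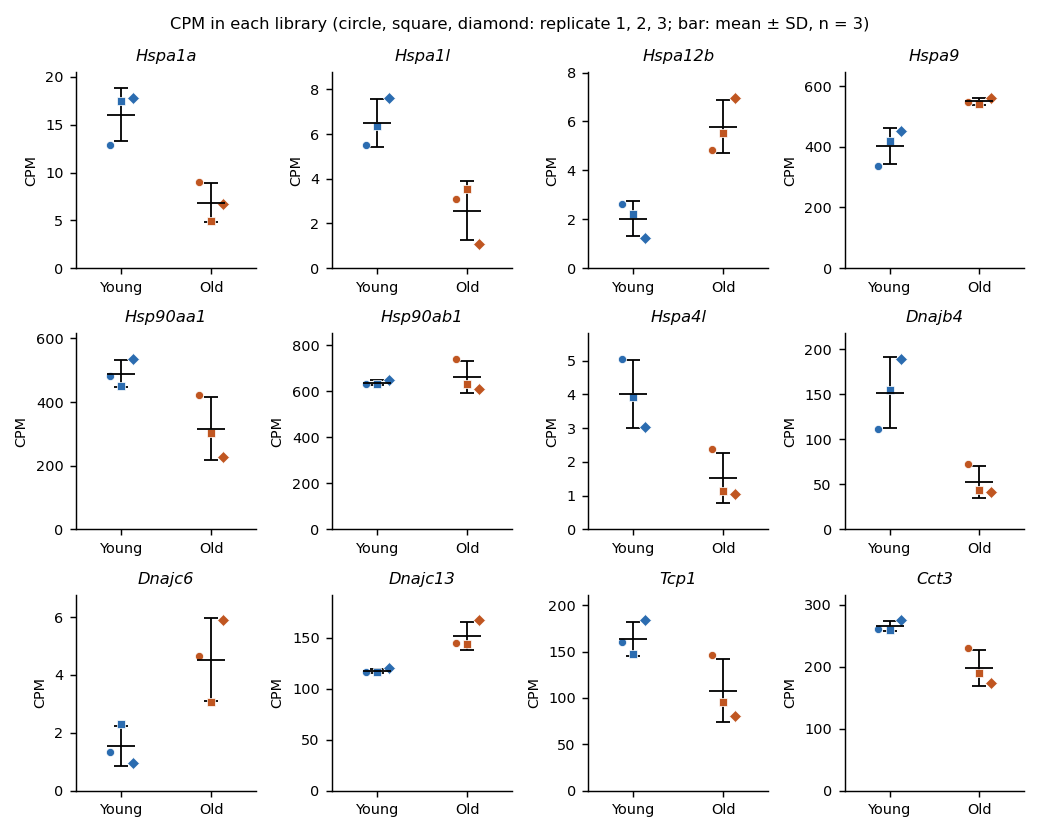
CPM of 12 chaperone genes in each young (blue) and old (orange) library, on linear axes that start at 0. Horizontal bars are means and error bars SD (n = 3). In 11 panels the young and old points do not overlap, and in the panel of Hsp90ab1 they do. The panels are a selection, so this count does not describe the 75 genes. Of the 75, old lay entirely above young for 13.3% (14.5% of all genes) and entirely below for 22.7% (14.7% of all genes).

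A list of cytosolic genes known as targets of heat shock factors held Hspa1a, Hspa4l, Hsph1, Hsp90aa1, Dnaja1, Bag3 and also Hspa8, which is mainly constitutive. Of these 7, 6 were lower in old, with a median log2FC of -0.30 (-0.12 without old replicate 3 and -0.60 without old replicate 2). In edgeR, 3 of the 7 had an unadjusted p under 0.05 and were lower (11.5% of all genes). Dnaja1, a farnesylated J-domain partner of Hspa8, was at 202, 209 and 176 CPM in young and 178, 184 and 146 CPM in old (log2FC -0.21, SE 0.13). Bag3, which links HSP70 to the small heat shock protein Hspb8 and to autophagy of filamin, was the exception, at 89.1, 95.7 and 83.1 CPM in young and 85.9, 84.2 and 116 CPM in old. Old replicate 3 alone set its log2FC of 0.10 (SE 0.15), which was -0.07 without that library. Of the 6 genes with a 3-unit heat shock element in the RefSeq window, 6 were lower in old, with log2FC values between -0.35 (Hspd1) and -0.05 (Hspa8), and 0 of the 6 had an unadjusted p under 0.05. The list of heat shock factors and the factor-binding protein Hsbp1 held 4 genes with a row, and 0 reached an unadjusted p under 0.05 in edgeR. Of these, 2 were higher (Hsf1 and Hsf4) and 2 lower (Hsf2 and Hsbp1). Hsf4 was above young in every old library (log2FC 0.81, SE 0.39) and Hsf2 below (log2FC -0.14, SE 0.08). Immediate early genes, which respond to handling and serum, summed to 202, 218 and 302 CPM in young and to 302, 85.4 and 95.7 CPM in old, with 0 of 8 at an unadjusted p under 0.05. Their part in the values of inducible chaperones was not tested.

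Small heat shock proteins hold unfolded clients for HSP70 without using ATP, and 5 of the 6 genes with a row were lower in old (median log2FC -0.97). Of the 6 genes, 4 had an unadjusted p under 0.05 in edgeR and were lower (11.5% of all genes), 0 passed the adjusted threshold and DESeq2 called 3 lower (3.31% of all genes). The largest difference was that of Cryab (αB-crystallin), at 575, 874 and 307 CPM in young and 214, 66.5 and 79.5 CPM in old (log2FC -2.29, SE 0.58, adjusted p = 0.111 from edgeR). These genes are rich in muscle, and the summed level of the smooth muscle markers was lower in the same old libraries. How far the marker difference accounts for them was not tested.

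The J-domain proteins formed the largest group, with 4 DNAJA, 9 DNAJB and 26 DNAJC genes and median log2FC values of -0.003, 0.02 and -0.07. The 4 DNAJA genes, general partners of HSP70 in the cytosol and mitochondrion, had log2FC values between -0.21 (Dnaja1) and 0.06 (Dnaja2). Among DNAJB genes, Dnajb4 (ENSRNOG00000013011), a cytosolic partner of HSP70 related to Dnajb1, stood apart from the others. It was at 111, 155 and 190 CPM in young and at 73.2, 43.6 and 41.8 CPM in old. The lowest young library was above the highest old one, and the level was 2.88-fold lower in old (log2FC -1.52, SE 0.29, adjusted p = 0.0709 from edgeR and 4.4e-05 from DESeq2). This adjusted p was the lowest of the 75 genes in edgeR, and with 1 library left out it ranged from 0.0286 (without old replicate 1) to 0.245 (without young replicate 2). In young the level of Dnajb4 followed the same order as the sum of the smooth muscle markers, at 11326, 16338 and 21576 CPM in replicates 1 to 3, and old replicate 1 had the highest value of both among old libraries. The part of the smooth muscle markers in the Dnajb4 difference was not tested. The other 8 DNAJB genes had log2FC values between -0.32 (Dnajb5) and 0.31 (Dnajb3), and of them only Dnajb5 had an unadjusted p under 0.05 in edgeR (adjusted p = 0.211 from edgeR).

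The DNAJC genes, which direct HSP70 to single tasks, were mostly level, and 4 of 26 had an unadjusted p under 0.05 in edgeR and were higher in old, near the share of all genes (11.2%). They were Dnajc6, Dnajc13, Dnajc18 and Dnajc30, and 2 of them act on membrane vesicles. Dnajc6 (ENSRNOG00000052887; auxilin), which calls Hspa8 to clathrin coats to take them apart, was at 1.35, 2.29 and 0.957 CPM in young and 4.64, 3.06 and 5.90 CPM in old. Its level was 2.94-fold higher in old without overlap (log2FC 1.56, SE 0.41, adjusted p = 0.116 from edgeR and 0.00571 from DESeq2). Dnajc13 (ENSRNOG00000011491; RME-8), which works with Hspa8 on endosomes, was at 116, 117 and 120 CPM in young and 144, 144 and 167 CPM in old. The young cultures were close to each other and all below the old ones, and the log2FC was 0.37 (SE 0.10, adjusted p = 0.114 from edgeR and 0.0151 from DESeq2). Dnajc5 (cysteine string protein), the third vesicle gene, was at 113 to 125 CPM in young and 124 to 128 CPM in old (log2FC 0.09, SE 0.08).

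Dnajc18, an ER membrane J-domain protein, was at 21.7, 21.8 and 20.6 CPM in young and 24.6, 25.3 and 25.9 CPM in old (log2FC 0.24, SE 0.08, adjusted p = 0.173 from edgeR). Dnajc30, which resides in mitochondria, was at 9.17, 9.86 and 10.3 CPM in young and 11.6, 11.4 and 13 CPM in old (log2FC 0.29, SE 0.12, adjusted p = 0.213 from edgeR). For both, the groups were separate although the differences were small. At the other end, Dnajc9, a histone chaperone of dividing cells, had the lowest DNAJC log2FC (-0.50, SE 0.26). It was at 39.9, 31.9 and 41.3 CPM in young and 38.1, 21.1 and 20.8 CPM in old, so that old replicate 1 was within the young range, as was the sum of the proliferation genes in that library. The other DNAJC genes had log2FC values between -0.35 (Dnajc24) and 0.37 (Dnajc28), and 0 of them had an unadjusted p under 0.05 in edgeR.

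**Figure D3:**
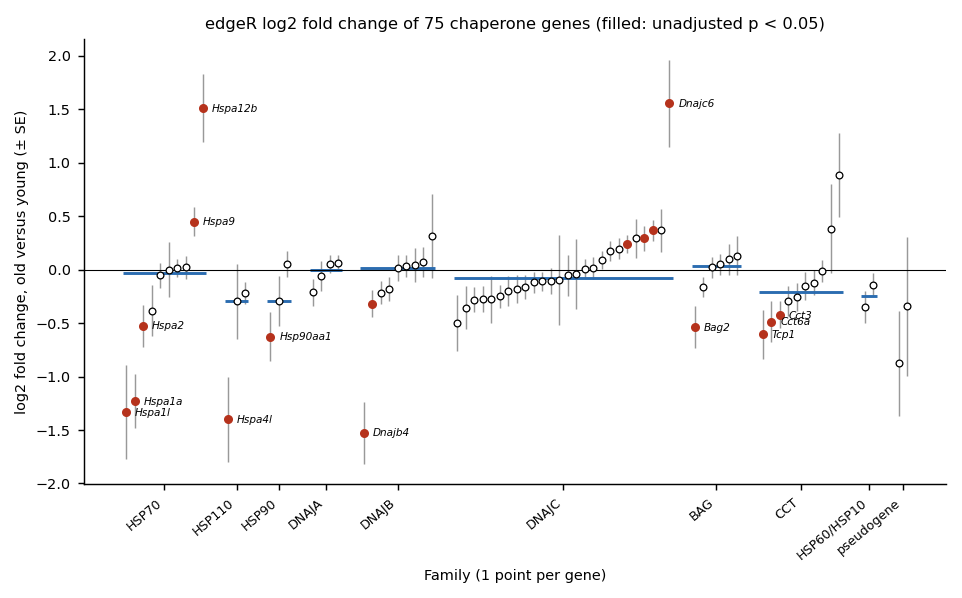
Log2FC of old versus young (edgeR, ± SE) for the 75 genes, 1 point per gene, grouped by family. Filled red points have an unadjusted p under 0.05 and blue lines are family medians (no median is drawn for the 2 pseudogene rows). The medians lie between -0.30 and 0.04, and the filled DNAJC points are all above 0 while the filled CCT points are all below 0.

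BAG proteins bind the ATPase domain of HSP70, and 4 of 6 were higher and 2 lower in old, with a median log2FC of 0.04. Bag2, which inhibits the ubiquitin ligase CHIP, was at 58.6, 60.3 and 70.2 CPM in young and 54.1, 44 and 32.1 CPM in old. It was the only BAG gene without overlap between groups (log2FC -0.54, SE 0.20, adjusted p = 0.186 from edgeR). The other 5 had log2FC values between -0.16 (Bag1) and 0.13 (Bag4). In the list of BAG3 partners in chaperone-assisted selective autophagy, 7 of 11 genes were lower and 4 higher. The lower genes at an unadjusted p under 0.05 included Synpo and Synpo2, which encode actin-bundling adaptors. The higher genes at that p were Sqstm1 and Map1lc3b, which encode an autophagy receptor and a protein of the autophagosome. Synpo had the largest difference, with a log2FC of -1.16 (SE 0.46, adjusted p = 0.211 from edgeR).

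In the chaperonin CCT, all 8 ring genes were lower in old, with log2FC values between -0.61 (Tcp1) and -0.01 (Cct2) and a median of -0.28, though Cct2 turned to 0.05 without old replicate 3. The 8 genes encode the different subunits of a single double ring. Tcp1 (ENSRNOG00000014160; CCT1) was at 160, 147 and 184 CPM in young and 146, 95.8 and 81.1 CPM in old. All old values were below all young values, old replicate 1 only slightly, and the log2FC was -0.61 (SE 0.23, adjusted p = 0.195 from edgeR). Cct6a was at 183, 174 and 200 CPM in young and 172, 122 and 104 CPM in old (log2FC -0.48, SE 0.19, adjusted p = 0.208 from edgeR). For Cct3 (ENSRNOG00000019090) the gap between groups was wider, with 261, 260 and 275 CPM in young and 230, 189 and 174 CPM in old. Its log2FC was -0.42 (SE 0.13, adjusted p = 0.141 from edgeR and 0.0370 from DESeq2). By contrast Cct2 was at 246, 240 and 259 CPM in young and 271, 243 and 226 CPM in old, with overlapping groups.

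For each of the 8 ring genes old replicate 1 had the highest level among the old libraries, and the sum of the 8 was 1917, 1856 and 2014 CPM in young and 1905, 1529 and 1408 CPM in old. The sum in old replicate 1 was within the young range, as was the sum of the proliferation genes in that library, while both were lowest in old replicates 2 and 3. The part of proliferation in the CCT values was not tested. The makeup of the ring RNA also differed between groups. As a share of the counts on the 8 genes, Cct2 took 12.9% ± 0.0543 (SD, n = 3) in young and 15.4% ± 1.02 in old, and Tcp1 took 8.47% ± 0.604 in young and 6.56% ± 0.978 in old. The share of Cct2, Cct4 and Cct5 was higher in every old library than in every young one, that of Cct3, Cct6a and Tcp1 was lower in every old library, and that of Cct7 and Cct8 overlapped. Shares of a whole depend on each other, and an exact permutation test of 3 against 3 libraries cannot give a two-sided p under 0.1. Cct6b and Cct8l2, relatives of the ring genes known from testis, were under 1 CPM on average and are not part of these sums. Among helpers that hand clients to CCT, the 4 prefoldin subunit genes with a row gave 3 lower, 1 higher and 0 at an unadjusted p under 0.05 in edgeR. Both phosducin-like genes of the list were lower, and Pdcl3 had an unadjusted p under 0.05 (log2FC -0.51, SE 0.16, adjusted p = 0.146 from edgeR).

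**Figure D4:**
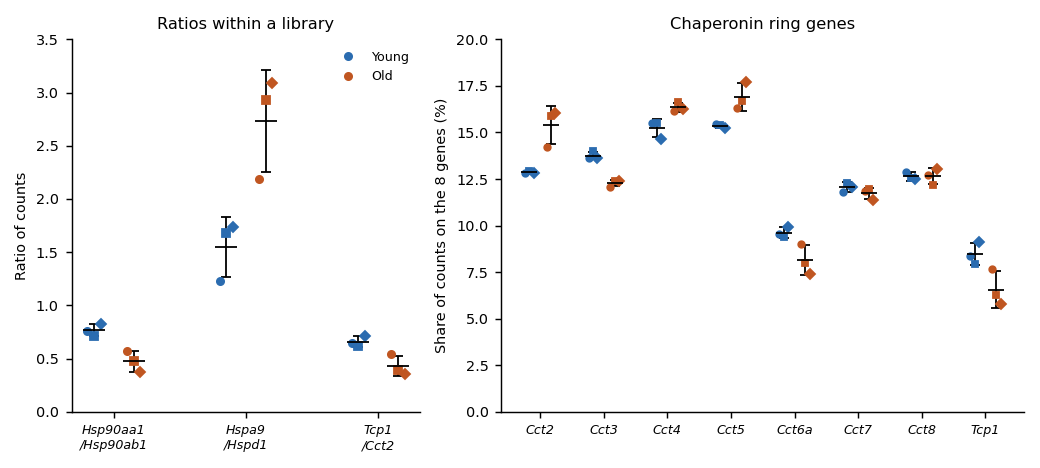
Left, count ratios of 3 gene pairs in each library; right, the share (%) of counts on the 8 CCT ring genes taken by each. Young is blue and old orange, symbols are replicates 1 (circle), 2 (square) and 3 (diamond), and bars are means ± SD (n = 3). The young and old points are separate for the 3 ratios and for the shares of all ring genes but Cct7 and Cct8.

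Partners of HSP90 and HSP70 differed little. Of 22 co-chaperone genes with a row, 19 were lower in old, with a median log2FC of -0.12. In edgeR, 4 of the 22 (Stip1, Ahsa1, Ppp5c and Unc45a) had an unadjusted p under 0.05 and were lower (11.5% of all genes). Stip1 (HOP), which bridges HSP70 and HSP90, had the largest difference, at 128, 130 and 139 CPM in young and 116, 91.3 and 76.1 CPM in old (log2FC -0.49, SE 0.16, adjusted p = 0.163 from edgeR). Unc45a, which guides HSP90 to myosin, was the gene among them with a DESeq2 adjusted p under 0.05. It was at 84.3, 93.7 and 92.2 CPM in young and 70.2, 69.0 and 69.0 CPM in old, with old replicate 1 as low as the others (log2FC -0.38, SE 0.08, adjusted p = 0.0920 from edgeR and 0.00103 from DESeq2).

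The ER chaperones gave a median log2FC of -0.05 over 14 genes, with 7 higher and 7 lower. In edgeR, 1 of the 14, Dnajc18, had an unadjusted p under 0.05 and was higher (11.2% of all genes). Hspa5 (BiP), the HSP70 of the ER and the best known target of the unfolded protein response, was at 1049, 963 and 1135 CPM in young and 1079, 750 and 583 CPM in old. Old replicate 1 was within the young range and the other old libraries were below it (log2FC -0.38, SE 0.24, adjusted p = 0.363 from edgeR). Its count ratio to Hsp90b1 was nearly constant in young (0.889 ± 0.00720, SD, n = 3) and was 0.831 ± 0.0354 in old. Dnajc3 (P58IPK), which restrains the kinase PERK and aids BiP, was at 108, 103 and 105 CPM in young and 101, 77.6 and 81.5 CPM in old. It was lower in each old library (log2FC -0.28, SE 0.12, adjusted p = 0.228 from edgeR). Dnajb9 (ERdj4), which passes misfolded proteins to degradation, was at 32.1, 36.7 and 37.5 CPM in young and 30.9, 37.8 and 42.8 CPM in old, with overlapping groups (log2FC 0.07, SE 0.14).

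Of the 7 ER genes listed as ER stress inducible (Hspa5, Hspa13, Hsp90b1, Dnajb9, Dnajb11, Dnajc3 and Dnajc10), 5 were lower and 2 higher, with a median log2FC of -0.18 (-0.099 without old replicate 3) and 0 at an unadjusted p under 0.05. The 3 genes with an ER stress response element in the RefSeq window, Hspa5, Hsp90b1 and Dnajc3, had log2FC values of -0.38, -0.29 and -0.28. The regulators of the unfolded protein response stood on the other side, with 8 of 11 higher in old (median log2FC 0.27), 5 of them with an unadjusted edgeR p under 0.05 (11.2% of all genes) and none of the lower ones. DESeq2 called 2 of the 11 higher, Ddit3 and Trib3 (2.25% of all genes). Trib3, a pseudokinase induced by ATF4 and CHOP, had the largest difference, at 14.6, 21.6 and 37.6 CPM in young and 64.7, 71.0 and 71.0 CPM in old (log2FC 1.49, SE 0.33, adjusted p = 0.0928 from edgeR). Ddit3 (CHOP), a transcription factor of the PERK branch, was at 27.5, 33.0 and 30.6 CPM in young and 58.3, 65.2 and 82.7 CPM in old (log2FC 1.18, SE 0.15, adjusted p = 0.0531 from edgeR). In both, old replicate 1 lay with the other old libraries, unlike in Hspa5. Among 19 other ER folding genes, 12 were lower and 7 higher, with a median of -0.08. At an unadjusted edgeR p under 0.05, 2 were higher, Ero1a and Herpud1 (11.2% of all genes), and 2 lower, Hyou1 and Creld2 (11.5%). The oxidase gene Ero1a had the largest difference, with overlapping groups (log2FC 0.90, SE 0.36, adjusted p = 0.209 from edgeR). Herpud1 was above young in every old library (log2FC 0.66, SE 0.17, adjusted p = 0.111 from edgeR and 0.0153 from DESeq2). Hyou1 was below young in every old library (log2FC -0.39, SE 0.09, adjusted p = 0.105 from edgeR and 0.00397 from DESeq2).

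In the mitochondrion, 5 of 10 chaperone genes were higher and 5 lower (median log2FC -0.03), and the import HSP70 and the chaperonin differed in direction. Hspa9 (ENSRNOG00000019525; mortalin), which pulls proteins into the matrix, was at 338, 420 and 452 CPM in young and 548, 541 and 562 CPM in old. All old libraries were above all young ones and close to each other (log2FC 0.45, SE 0.14, adjusted p = 0.143 from edgeR and 0.0339 from DESeq2). Hspd1 (HSP60), the ring in which matrix proteins fold, was at 276, 250 and 260 CPM in young and 250, 185 and 182 CPM in old. Old replicate 1 met the lower end of the young range, and the log2FC was -0.35 (SE 0.15, adjusted p = 0.227 from edgeR). Hspe1 (HSP10), its lid, was at 98.4, 87.7 and 90.2 CPM in young and 91.9, 75.4 and 83.3 CPM in old (log2FC -0.14, SE 0.11).

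Within a library, the ratio of Hspa9 to Hspd1 counts was 1.22, 1.68 and 1.73 in young and 2.19, 2.93 and 3.09 in old (exact permutation test, two-sided p = 0.1, the smallest possible). This pair too was chosen after its values were seen, so the p adds no independent support. The ratio of Hspd1 to Hspe1, which share a promoter region, was 2.85 ± 0.0412 (SD, n = 3) in young and 2.45 ± 0.270 in old, and was also separate between groups. Of 13 other genes of mitochondrial protein quality control, 7 were higher and 6 lower, with a median log2FC of 0.001. Lonp1, the matrix protease, had the largest difference, at 133, 145 and 138 CPM in young and 215, 183 and 186 CPM in old (log2FC 0.49, SE 0.10, adjusted p = 0.0802 from edgeR). Spg7, a subunit of an inner membrane protease, was the gene on the lower side with an unadjusted p under 0.05 (log2FC -0.39, SE 0.08, adjusted p = 0.0823 from edgeR).

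**Figure D5:**
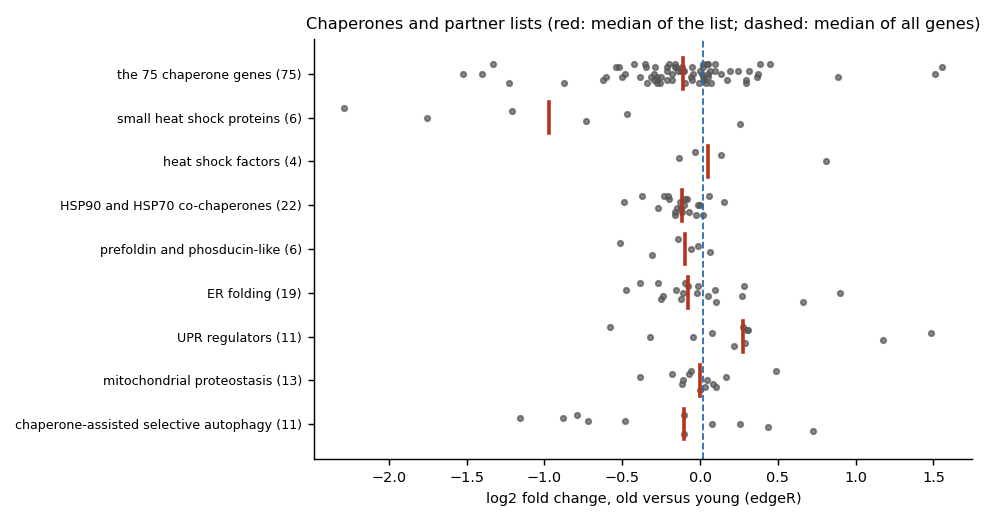
Log2FC of old versus young (edgeR) for the 75 chaperone genes and for the lists of partner genes, with the number of genes in brackets, 1 point per gene (vertical spread within a row has no meaning). Red bars are list medians and the dashed line is the median of all genes, 0.02. The small heat shock proteins lie farthest to the left (median -0.97) and the regulators of the unfolded protein response farthest to the right (median 0.27).

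Spread between cultures was smaller for these genes than over all genes at the same minimum level. Levels above that minimum were not matched, so the comparison does not separate gene family from level. Among genes with a mean of at least 1 CPM, the median coefficient of variation over the young libraries was 7.22% for the chaperones and 9.94% for all genes, and over the old libraries 12% and 14.6%. Of the 10 genes whose old libraries were all above the young ones, old replicate 3 was the highest old library in 8, and of the 17 with old below young it was the lowest in 11. Old replicate 3 thus lay farthest from the young cultures for most of the separated genes, and old replicate 1 nearest to them for most of those that were lower.

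The size of several differences depended on single libraries. When libraries were left out one by one, the log2FC of Hsp90aa1 ranged from -0.43 (without old replicate 3) to -0.89 (without old replicate 1), and those of Tcp1 from -0.44 to -0.89 and of Cct6a from -0.34 to -0.71 under the same choices. Cct3 varied less, from -0.34 to -0.55. In the ER the range was -0.20 to -0.65 for Hspa5 and -0.09 to -0.53 for Hsp90b1, and in the mitochondrion -0.27 to -0.51 for Hspd1, each from the fit without old replicate 3 to that without old replicate 1. The log2FC of Hspa9 ranged from 0.33 (without young replicate 1) to 0.54 (without young replicate 3). Those of Hspa12b and Dnajc6 ranged from 1.26 to 1.73 and from 1.31 to 1.97. Without old replicate 1 the edgeR adjusted p was 0.0325 for Tcp1, 0.0332 for Cct6a, 0.0336 for Cct3, 0.0367 for Hspd1 and 0.0404 for Hsp90aa1. It was 0.0644 for Hspa5 and 0.125 for Hsp90b1. Dnajc9, Hspa4l, Dnajc3 and Bag2 then had log2FC values of -0.85, -1.87, -0.40 and -0.73 (adjusted p = 0.0332, 0.0330, 0.0442 and 0.0590 from edgeR). In that fit 5.06% of all genes passed both thresholds. All these genes kept their direction in the 6 fits.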

How the data were processed

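RNA of VSM cells from 3 young (4 months) and 3 old (24 months) rats was analysed, with groups taken from the labels. The authors deposited raw gene counts, whole numbers that were not normalized and had been filtered so that each gene reached at least 10 counts in at least 3 libraries. Per the labels and the methods, reads were trimmed (Trim Galore 0.6.7, cutadapt 3.5), aligned with STAR 2.7.10b to Rnor 6.0 and counted with featureCounts (Subread 2.0.8). How featureCounts treated strand, mates and reads with several positions is not given in the sources. Even numbers made up 68.7% to 71.1% of the low counts (1 to 19), which would arise if each mate of a pair was counted. Counts on genes in every library also exceeded the reads per sample that the paper gives as sequencing depth. Genes carry Ensembl identifiers although a RefSeq annotation is named, and 1518 had no symbol, so a chaperone among these was not found by symbol.

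The 14475 genes were fitted with edgeR 4.0.16 in R 4.3.3 (TMM, quasi-likelihood F test, Benjamini-Hochberg adjustment over all genes, model of age with young as reference). Standard errors (SE) were computed as the size of the log2FC over the root of its F statistic. CPM use TMM-scaled library sizes, and CPM are not compared between genes since no transcript lengths were used. Alternatives were limma-voom (limma 3.58.1), DESeq2 1.42.0 (the study used 1.46.0), other filters and scalings, the replicate number as a block, halved counts and each library left out. DESeq2 values in the text use independent filtering at 0.05, chosen after seeing the data. The fits were tested on simulated data. With 3 libraries per group of 44235674 to 59700887 counts, precision is limited by the number of cultures.

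Members and lists were chosen with earlier results of these data known, so lists are described by counts and medians without a test. The genes named were a fixed list of central chaperones, the 15 with the smallest p and the largest change in each of the 9 families. Others are named as the ends of a range or to complete a family, and were chosen after their values were seen. Compartments were assigned from general knowledge. RefSeq promoter windows are in GRCr8, not the assembly of the counts. No column was left unused. In the autophagy list, not every gene with an unadjusted p under 0.05 is reported here.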

Additional observations from a re-analysis of the deposited data

How the results depend on the processing

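The number of chaperone genes passing both thresholds was 0 in edgeR, 6 in DESeq2 with default settings, 6 with filtering at 0.05 and 3 in edgeR at an adjusted p under 0.1, and it ranged from 0 to 3 with 1 library left out, the 3 without old replicate 1. The 11 genes lower at an unadjusted p under 0.05 ranged from 4 (without young replicate 3) to 26 (without old replicate 1), being 6 and 5 without young replicates 1 and 2 and 7 without old replicate 3. The 6 DESeq2 calls ranged from 3 (without young replicate 1 or old replicate 3) to 6. With 1 library left out, the median log2FC ranged from -0.19 (without old replicate 2) to -0.028 for HSP70, from -0.81 (without old replicate 2) to -0.19 for HSP110, from -0.60 (without old replicate 2) to -0.12 for the heat-inducible list, from -0.085 (without young replicate 1) to 0.015 for DNAJB and from -0.064 (without old replicate 2; -0.00062 without old replicate 3) to 0.037 for BAG. Among genes with at least 1 CPM in all 6 libraries the medians were -0.081 for DNAJB and 0.23 for the vesicle genes, with fewer genes entering each. The median of all 75 genes ranged from -0.14 to -0.064 (without young replicate 2), that of HSP90 from -0.53 (without old replicate 1) to -0.094 (without old replicate 3), that of CCT from -0.34 (without old replicate 1) to -0.12 (without old replicate 3) and that of the ER stress inducible list from -0.26 (without old replicate 1) to -0.099 (without old replicate 3). The log2FC of 21 of the 75 genes changed sign with some library left out. Of the 27 named genes 4 did so: the log2FC ranged from -0.071 (without old replicate 3) to 0.18 for Bag3, from -0.045 (without old replicate 3; -5.1e-05 without young replicate 1) to 0.19 for Dnajb9, from -0.11 to 0.014 (without young replicate 3) for Hspa8 and from -0.037 (without old replicate 1) to 0.11 for Hsp90ab1. Apart from these leave-one-out fits, the cause of the differences between tools was not tested. Scaling moved the median of all genes within 0.01 to 0.03. Whether same-numbered libraries are pairs was not settled. Correlations of deviations were 0.063, 0.322 and 0.313 for the same number and between -0.455 and 0.354 for different numbers. The replicate block gave 0 calls, 4 genes higher and 12 lower at an unadjusted p under 0.05 and a median of -0.12.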

Other observations

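Some pairs of genes that act together were compared as count ratios within a library, here and above, and all were chosen after their values were seen. The ratio of Tcp1 to Cct2 was 0.650, 0.614 and 0.711 in young replicates 1 to 3 and 0.538, 0.394 and 0.359 in old replicates 1 to 3. The ratio of Dnajb4 to Dnajb6 was 1.5, 2.00 and 2.66 in young and 1.25, 0.599 and 0.685 in old. For both, the groups were separate (exact permutation test, two-sided p = 0.1, the smallest that 3 against 3 allows). The ratio of Hspa1a to Hspa1l, whose gene spans overlap, was 2.34, 2.75 and 2.34 in young and 2.88, 1.38 and 6.19 in old, so that old replicates 2 and 3 lay on opposite sides of the young range (exact permutation test, two-sided p = 0.7).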
